A study of Mus musculus with 30 samples.

Results

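The clustered replication-dependent histone genes were taken as every row of the expression table whose symbol begins with Hist1h, Hist2h, Hist3h or Hist4h, which gave 75 rows under 68 symbols of the 24883 rows in the table. The symbols comprised 6 of histone H1, 18 of H2A, 19 of H2B, 12 of H3 and 13 of H4, and 1 of the H2B symbols, Hist3h2bb-ps, is annotated as a processed pseudogene. Expression was measured in one dorsal hippocampus hemisphere from each of 30 male young adult C57BL/6J wild-type mice, 6 in each of 5 conditions, with 1 library per mouse. Mice received bilateral infusions into dorsal CA1 (dCA1) 3 days before training in object location memory (OLM), a task in which a mouse learns where objects stand, and tissue was collected 1 h after training. VEH-HC mice received the jetPEI transfection reagent without DNA and stayed in the home cage, with handling only. Trained mice were also habituated to the training chamber on earlier days. Against VEH-HC, the effects of habituation, of the chamber and of training thus cannot be told apart. VEH-T10 and VEH-T3 mice received the same reagent and were trained for 10 min, a threshold period, or 3 min, a subthreshold period. Y397F-T10 mice received a plasmid for HA-tagged mouse CREST with the phospho-null change of tyrosine 397 to phenylalanine and were trained for 10 min, and Y397D-T3 mice received the phospho-mimetic change to aspartic acid and were trained for 3 min. Phospho-null and phospho-mimetic are the terms of the sample labels. The paper could not detect phosphorylation of this tyrosine and calls both changes point mutants only. CREST, the product of Ss18l1, is a calcium-responsive transactivator that binds the acetyltransferase CBP and the neuronal BAF remodeling complex. The infused mice also kept their own Ss18l1, no mice with a plasmid were kept in the home cage, and no mice received a plasmid for unmutated CREST.

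Histones H2A, H2B, H3 and H4 form the protein core of the nucleosome, and H1 binds the DNA that links one nucleosome to the next. The clustered genes supply new histones while DNA is copied, and their messenger RNAs typically end in a conserved stem-loop bound by the stem-loop binding protein SLBP in place of a poly(A) tail. Some of these genes also yield polyadenylated transcripts in cells that no longer divide, such as neurons, whose histone replacement otherwise draws on single genes outside the clusters, among them those for H3.3 and H2A.Z.

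The genes lie in clusters on chromosome 13 (Hist1, 54 symbols), chromosome 3 (Hist2, 10 symbols) and chromosome 11 (Hist3, 3 symbols), with Hist4h4 on chromosome 6, by GENCODE on GRCm38, which is the mm10 assembly of the authors' alignment. The annotated transcripts held the histone stem-loop for 46 symbols. Its 16-base core was identical for 26 of them, all of classes other than H4. The stretches below show the core in capitals with up to 5 bases on either side for the members that the later comparisons turn on, and for Hist1h4i, the most abundant H4 symbol.
Hist3h2a: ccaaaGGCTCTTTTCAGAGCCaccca
Hist3h2ba: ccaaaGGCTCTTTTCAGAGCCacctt
Hist2h4: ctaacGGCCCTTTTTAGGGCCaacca
Hist1h4j: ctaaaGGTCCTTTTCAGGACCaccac
Hist1h4i: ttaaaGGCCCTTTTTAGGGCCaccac
Hist3h2a and Hist3h2ba carried the shared core, Hist2h4 and Hist1h4i had the same core as each other, and the core of Hist1h4j was otherwise found in Hist1h4b. Each of these 5 transcripts was annotated as running on past the stem-loop, by 1643 bases in Hist3h2a, 169 in Hist3h2ba, 1257 in Hist2h4, 385 in Hist1h4j and 330 in Hist1h4i. Among all 68 symbols, 23 had transcripts that ran more than 100 bases past the stem-loop, 23 ended within that distance of it and 22 had no stem-loop in their annotated transcripts. Whether the RNA was selected for poly(A) tails is not given in the sources used here, and a library made that way would hold few transcripts without a tail.

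Hist3h2ba, which encodes an H2B, and Hist3h2a, which encodes an H2A, are single-exon genes on the plus strand of chromosome 11, at chr11:58948920-58949533 and chr11:58954685-58956830, with 5151 bases between them. Their promoter windows in RefSeq, 250 bases before to 50 after the annotated start on GRCm38.p6, are shown because both genes were called higher in one condition. Capitals mark CCAAT, searched on both strands so that it also appears as ATTGG, and TATAAA, searched on the strand of the gene.
Hist3h2a promoter, chr11:58954435-58954734, plus strand: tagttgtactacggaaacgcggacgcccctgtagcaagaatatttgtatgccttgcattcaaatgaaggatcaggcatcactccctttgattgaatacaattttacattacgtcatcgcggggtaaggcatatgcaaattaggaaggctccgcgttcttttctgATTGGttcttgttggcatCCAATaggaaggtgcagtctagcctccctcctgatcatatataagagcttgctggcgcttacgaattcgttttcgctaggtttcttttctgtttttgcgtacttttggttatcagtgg
Hist3h2ba promoter, chr11:58948661-58948960, plus strand: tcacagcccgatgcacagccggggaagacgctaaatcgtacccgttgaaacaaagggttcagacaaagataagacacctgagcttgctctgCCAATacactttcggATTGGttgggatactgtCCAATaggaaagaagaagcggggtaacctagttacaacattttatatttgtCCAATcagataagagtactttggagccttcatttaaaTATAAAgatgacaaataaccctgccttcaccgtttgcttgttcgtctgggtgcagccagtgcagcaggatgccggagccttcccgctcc
The Hist3h2a window held CCAAT 2 times and no TATAAA, and the Hist3h2ba window held CCAAT 4 times and TATAAA 1 time. RefSeq windows were found for 62 of the 68 symbols, 63 windows in all. CCAAT was found in 54 of the 63, against 37.4% of all 32851 promoter windows. TATAAA was found in 30 of the 63, against 8.32% of all windows, and the cAMP response element TGACGTCA, searched on both strands, was found in 4 of the 63, against 1.79% of all.

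Levels of the histone genes in dorsal hippocampus covered a wide range. FPKM, the fragments of a gene scaled to its transcript length and to the mapped fragments of the library, takes length into account, so levels are compared here between genes. Of the 75 rows, 8 averaged 10 FPKM or more over the 30 mice, 18 averaged 1 to 10 FPKM, 39 averaged 0.1 to 1 FPKM and 8 averaged above 0 but under 0.1 FPKM. The rows for Hist1h2aa and Hist1h2bm were listed at 0 in every library. In order of mean level the highest symbols were the H2B gene Hist1h2bc at 115 FPKM, the H2A gene Hist2h2aa1 at 107 FPKM over its 2 rows, Hist3h2a at 62.1 FPKM, Hist3h2ba at 53.7 FPKM and the linker histone gene Hist1h1c at 42.9 FPKM. These 5 symbols together made up 80.2% of the summed histone FPKM, between 76.5% and 84.3% in single libraries. The ranges of Hist1h2bc (61.1 to 190 FPKM) and Hist2h2aa1 (53.8 to 169 FPKM) over the mice largely coincided, as did those of Hist3h2a (43.4 to 87.1 FPKM) and Hist3h2ba (37.3 to 80.2 FPKM). Both genes of a pair were measured in the same mice, so these pooled ranges do not give the order within a mouse, which was not tested. In VEH-T10 the lowest Hist3h2a mouse (56.0 FPKM) stood above the highest Hist3h2ba mouse (55.2 FPKM). The next symbols were the H2B gene Hist1h2bg at 13.9 FPKM and the H4 gene Hist1h4i at 13.5 FPKM. H3 had no symbol at 10 FPKM, and its highest were the copies Hist2h3c2 at 4.41 FPKM and Hist2h3c1 at 4.36 FPKM, each listed in 2 rows of identical values that are counted once here.

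**Figure D1:**
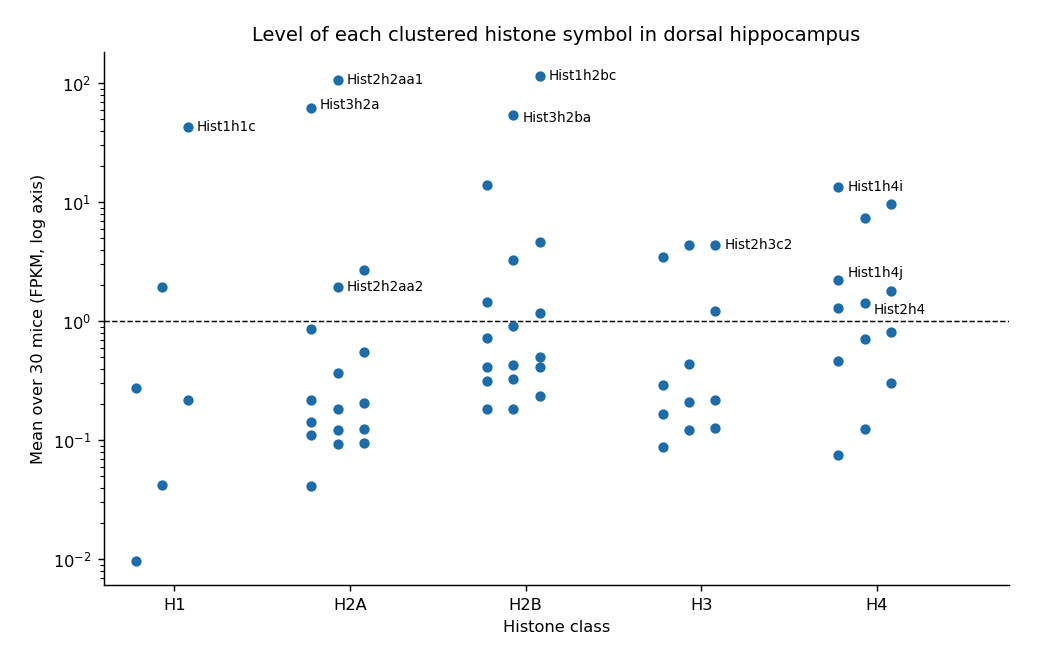
Mean FPKM over 30 mice (log axis) for each histone symbol with a mean above 0, by histone class, with rows of a symbol summed unless their values are identical and the threshold of 1 FPKM for testing as a dashed line. Hist1h2bc (115 FPKM) and Hist2h2aa1 (107 FPKM) are highest, and most symbols lie below 1 FPKM.

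Level went with how the transcript is annotated to end, as a description over symbols that share clusters and sequence. A mean of at least 1 FPKM was reached by 13 of the 23 symbols whose transcripts ran past the stem-loop (56.5%, median 1.42 FPKM), by 6 of the 23 that ended at it (26.1%, median 0.291 FPKM) and by 5 of the 22 without one (22.7%, median 0.301 FPKM). Some of the 22 had short annotated transcripts, such as 312 bases in Hist1h4k and 381 in Hist1h2bn. For these the annotation may stop before a stem-loop, so the 22 are not a known kind of transcript end. The 2 most abundant symbols were not among those that ran past the stem-loop. Hist2h2aa1 was annotated as ending 35 bases after the stem-loop, and Hist1h2bc, spliced from 2 exons, had no stem-loop in its annotated transcript.

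Sequence shared between copies limits what several rows can say. Of the 68 symbols, 14 had no 150-base stretch, the length of 1 read, in common with another annotated gene, 30 shared under 50% of such stretches and 24 shared 50% or more. Hist2h4 and Hist3h2ba shared none, and Hist1h4j shared 12.5%. Hist3h2a shared 28.0% of its stretches with a transcript of Trim17, a ubiquitin ligase gene at the same position and on the same strand, which was listed at 1.35 to 2.70 FPKM over the 30 mice. Hist2h2aa1 and Hist2h2aa2, inverted copies on chromosome 3, shared 100% of their stretches with each other or with overlapping gene models. Hist2h2aa1 averaged 107 FPKM and Hist2h2aa2 1.94 FPKM, and how the estimate divided fragments between these copies cannot be told from the table.

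The H3 copies Hist2h3c1 and Hist2h3c2 gave the clearest sign of such a division in the listed values. Hist2h3c1 was listed under 0.01 FPKM in 9 of the 30 libraries and Hist2h3c2 in 5 others, and no library had both that low. Hist2h3c1 averaged 4.36 FPKM and ranged from 0.000528 to 11.9 FPKM, a coefficient of variation of 85.2%. Hist2h3c2 averaged 4.41 FPKM with a coefficient of variation of 79.9%. Their sum ran from 4.63 to 14.1 FPKM with a coefficient of variation of 25.7%. The sum was 8.64 ± 2.92 FPKM in home-cage VEH-HC mice (SD, n = 6). After 10 min of training it was 8.21 ± 1.73 FPKM with vehicle and 9.48 ± 2.67 FPKM with Y397F, and after 3 min it was 8.23 ± 2.60 FPKM with vehicle and 9.25 ± 1.56 FPKM with Y397D. The conditions overlapped throughout.

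**Figure D2:**
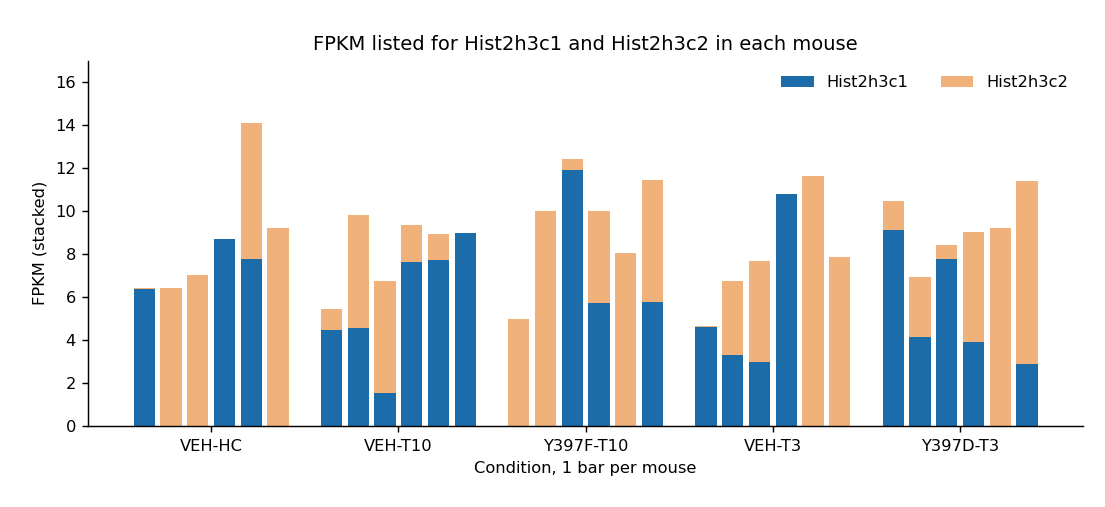
FPKM of Hist2h3c1 (blue) and Hist2h3c2 (orange) stacked, 1 bar per mouse and 6 mice per condition. In 14 of the 30 bars one of the copies is under 0.01 FPKM, while the full height stays between 4.63 and 14.1 FPKM.

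Summed by class, with rows of identical values under one symbol counted once, H2A and H2B were far above the other classes. Over the 30 mice H2B averaged 197 FPKM and H2A 177 FPKM, followed by H1 at 45.4 FPKM, H4 at 39.7 FPKM and H3 at 15.1 FPKM. H2A summed to 168 ± 25.5 FPKM in VEH-HC (SD, n = 6), to 167 ± 11.3 and 168 ± 32.2 FPKM after 10 min of training with vehicle and Y397F, and to 181 ± 46.8 and 199 ± 15.9 FPKM after 3 min with vehicle and Y397D. H4 summed to 33.4 ± 10.3 FPKM in VEH-HC, to 37.3 ± 7.29 and 41.9 ± 13.7 FPKM after 10 min with vehicle and Y397F, and to 41.0 ± 12.4 and 44.8 ± 10.9 FPKM after 3 min with vehicle and Y397D. H1, which rested almost wholly on Hist1h1c, was 49.3 ± 18.2 FPKM in VEH-HC and 39.9 ± 7.52 in Y397D-T3. Every class sum had overlapping ranges in VEH-HC and Y397D-T3, and these sums were not tested. The dissected tissue holds many cell types, so fewer cells of a type and less RNA per cell cannot be told apart in any of these values.

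The comparisons between conditions used limma on log2(FPKM + 1) for the 13184 rows with a mean of at least 1 FPKM, with p-values adjusted over all of them. Among these were 26 histone rows of 23 symbols, so the calls concern the more abundant members, and differences are given on the log2(FPKM + 1) scale, which draws those of low rows toward 0. The 4 trained conditions were compared with the same VEH-HC mice.

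The first question was whether histone gene expression differed between trained and home-cage mice with vehicle. After 10 min of training, 0 of the 26 rows were called by limma at an adjusted p under 0.05, where 0.319% of all tested rows were called higher and 0.501% lower. By unadjusted p-values limma gave 2 histone rows higher and 0 lower under 0.05, against 4.57% and 10.3% of all rows. These were Hist3h2a and Hist1h4j. The median difference of the 26 rows was 0.03, beside -0.03 over all tested rows. 

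Hist3h2a ran from 43.4 to 55.0 FPKM with a median of 50.9 in VEH-HC and from 56.0 to 68.2 FPKM with a median of 62.0 in VEH-T10. The mice of these conditions did not overlap, as was so for 0.789% of all tested rows in the higher direction. The difference was 0.30 ± 0.092 (SE) with an adjusted p of 0.101 from limma. Hist1h4j ran from 0 to 2.41 FPKM with a median of 0.799 in VEH-HC and from 0.762 to 9.86 FPKM with a median of 2.72 in VEH-T10. These ranges overlapped, and the VEH-T10 mean of 3.74 ± 3.47 FPKM (SD, n = 6) rested on widely scattered mice. Its difference was 1.06 ± 0.49 with an adjusted p of 0.301 from limma. The exact permutation test on mean FPKM, 2-sided, gave p = 0.0801 for Hist1h4j.

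After 3 min of training, Hist3h2a was the single histone row called higher by limma, 1 of 26, beside 2.23% of all tested rows called higher, and 0 were called lower, beside 2.94%. Its values in VEH-T3 were 49.8, 64.2 and 75.7 FPKM (lowest, median and highest), overlapping those of VEH-HC, and the difference was 0.33 ± 0.092 with an adjusted p of 0.0368. With the 12 libraries of these conditions alone the adjusted p was 0.126, and leaving out single mice gave 0.0176 to 0.114, above the threshold for 6 of the 12 mice (VEH-HC replicates 1, 3 and 4 and VEH-T3 replicates 2, 4 and 6). At an unadjusted p under 0.05, Hist1h4k, an H4 gene, was also higher (0.69 ± 0.33, adjusted p = 0.224 by limma) and Hist2h3b, an H3 gene, was lower (-0.35 ± 0.16, adjusted p = 0.205 by limma), so 2 rows were higher and 1 lower where 7.79% and 13.8% of all rows were. The median of the 26 rows was 0.08, beside -0.04 over all rows.

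The longer and the shorter training were compared directly as well. Between VEH-T10 and VEH-T3, 0 histone rows were called by limma in either direction, and 0 had an unadjusted p under 0.05. Of all tested rows 0.0455% were called lower in VEH-T10 and 0% higher, and unadjusted 4.51% were lower and 3.65% higher. Hist3h2a differed by -0.03 (95% interval -0.22 to 0.16) and Hist1h4j by 0.89 (-0.11 to 1.88). A call after 3 min and none after 10 min is therefore not shown to be a difference between the trainings for Hist3h2a.

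Histone rows were called in larger number in mice with the phospho-mimetic CREST. In Y397D-T3 against VEH-HC, limma called 3 of the 26 rows higher and 0 lower, beside 3.91% and 3.16% of all tested rows. These were Hist3h2a, Hist3h2ba and Hist2h4. At an unadjusted p under 0.05 there were 5 higher and 0 lower, beside 10.3% and 14.6% of all rows, with Hist1h4k and Hist1h2be added. The difference was above 0 for 21 of the 26 rows, with a median of 0.16 beside -0.03 over all tested rows. Hist2h3c1 and Hist2h3c2 each enter this count with 2 rows of identical values, and Hist2h2aa1 with 2 similar rows. The rows are therefore not separate genes, and the share of all tested rows above 0 was not taken.

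Hist3h2a ran from 70.7 to 87.1 FPKM with a median of 76.5 in Y397D-T3, all above the 55.0 FPKM of the highest VEH-HC mouse. It averaged 77.7 ± 5.67 FPKM in Y397D-T3 and 50.3 ± 4.70 FPKM in VEH-HC (SD, n = 6). The difference was 0.62 ± 0.092 with an adjusted p of 0.000622 from limma, higher in 6 of 6 mice than the VEH-HC median, and it kept an adjusted p under 0.05 when any single mouse was left out (0.000919 to 0.00206). Trim17, which shares sequence with Hist3h2a, was 2.06 ± 0.356 FPKM in Y397D-T3 and 1.87 ± 0.275 FPKM in VEH-HC, with a difference of 0.09 (95% interval -0.09 to 0.27, adjusted p = 0.540 by limma).

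Hist3h2ba had values of 56.4, 67.5 and 80.2 FPKM in Y397D-T3 and 44.0, 48.9 and 60.1 FPKM in VEH-HC. The ranges overlapped by 1 VEH-HC mouse above the lowest Y397D-T3 mouse, and the difference was 0.42 ± 0.13 with an adjusted p of 0.0397. In VEH-T10, Hist3h2ba stood at 50.3 ± 3.30 FPKM, close to the 49.7 ± 5.84 of VEH-HC, with a difference of 0.02 (95% interval -0.23 to 0.28). Its neighbor Hist3h2a was at 62.2 ± 4.41 FPKM in those VEH-T10 mice.

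Hist2h4, an H4 gene at chr3:96261682-96263311 on the minus strand, had values of 0.364, 0.718 and 1.07 FPKM in VEH-HC and 1.13, 2.35 and 3.09 FPKM in Y397D-T3. The mice did not overlap, but the level was near the threshold for testing. The difference was 0.87 ± 0.27 with an adjusted p of 0.0461 from limma, and the exact permutation test on mean FPKM gave p = 0.00216, the smallest that 6 mice against 6 allow, among 21 such tests. Hist2h4 was tested this way because the study named it from the same libraries, so that p is not independent evidence. The call for Hist3h2ba was lost in 10 of the 12 fits that left out 1 mouse (adjusted p 0.0319 to 0.0790), and so was that for Hist2h4 (0.0418 to 0.109). In all, 9 of these fits called only Hist3h2a, and the exceptions left out VEH-HC replicate 4 or Y397D-T3 replicate 2 or 6. Without the filter on level limma called 2 of 71 histone rows higher, beside 2.41% of the rows of that model, and 0 lower, beside 2.08%. These were Hist3h2a and the H2A gene Hist2h2ac. The latter was listed at 0 in 24 of the 30 libraries, VEH-HC, VEH-T10 and Y397F-T10 entirely, and above 0 in 4 Y397D-T3 mice and 2 VEH-T3 mice, so it entered that model only through the conditions in which it was high and nothing is read from its call.

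The mice of Y397D-T3 and VEH-HC did not overlap for 3 of the 26 rows, beside 2.50% of all tested rows in the higher direction. Besides Hist3h2a and Hist2h4 this was Hist1h2bf, an H2B gene chosen after its values were seen, which ran from 0.745 to 1.14 FPKM in VEH-HC and from 1.19 to 2.26 FPKM in Y397D-T3 (0.51 ± 0.27, adjusted p = 0.247 by limma). Hist1h4j was 2.85 ± 2.41 FPKM in Y397D-T3 (0.81 ± 0.49, adjusted p = 0.302 by limma; exact permutation p = 0.108). The abundant Hist1h2bc was 117 ± 16.5 FPKM in Y397D-T3 and 107 ± 20.6 FPKM in VEH-HC, a difference of 0.14 with a 95% interval of -0.27 to 0.54. Hist1h1c went the other way in value, at 37.6 ± 7.27 FPKM against 47.1 ± 18.1 FPKM (-0.26, 95% interval -0.90 to 0.37).

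**Figure D3:**
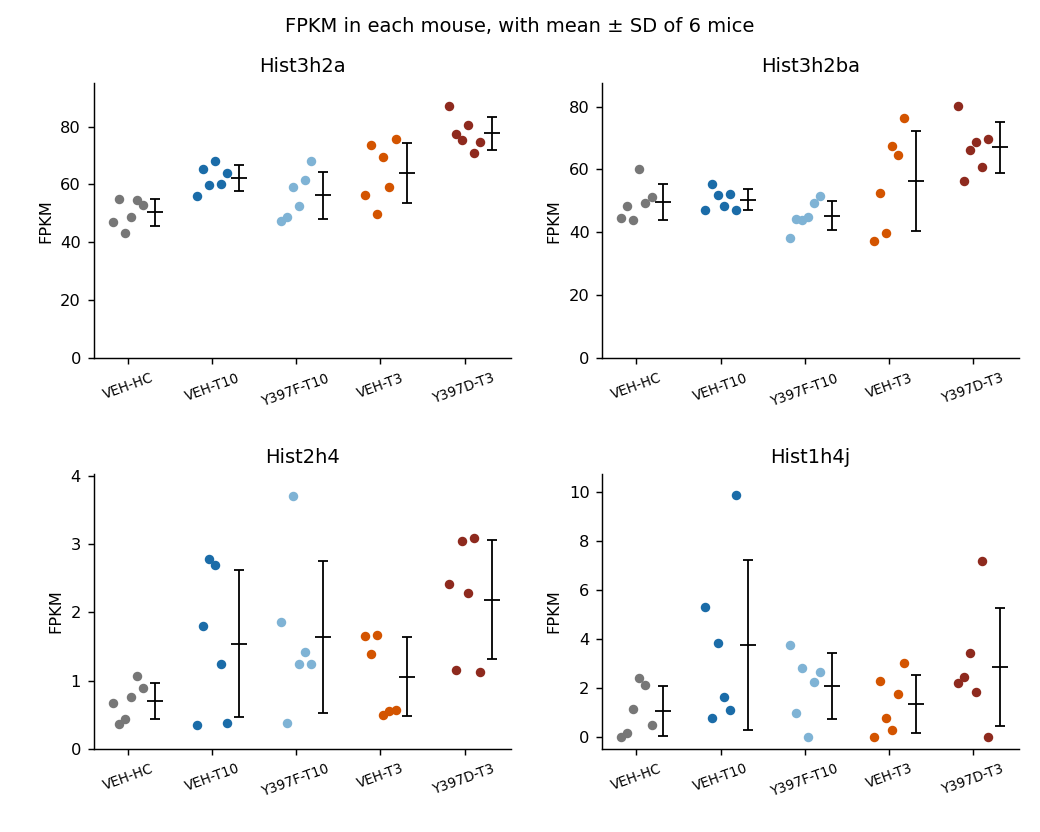
FPKM of Hist3h2a, Hist3h2ba, Hist2h4 and Hist1h4j in each of 6 mice per condition (points), with the mean and SD beside them. Hist3h2a in Y397D-T3 (70.7 to 87.1 FPKM) lies above every VEH-HC mouse (43.4 to 55.0 FPKM), while Hist1h4j scatters from 0 to 9.86 FPKM.

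The mice with the phospho-mimetic plasmid were then set against the vehicle mice with the same training. In Y397D-T3 against VEH-T3, 0 of the 26 histone rows were called by limma, beside 0% of all rows higher and 0.00758% lower, a single row. At an unadjusted p under 0.05, limma gave 3 higher and 0 lower, beside 5.15% and 2.72% of all rows, and these were again Hist3h2a (0.29 ± 0.092, adjusted p = 0.520), Hist3h2ba (0.29 ± 0.13, adjusted p = 0.611) and Hist2h4 (0.63 ± 0.27, adjusted p = 0.597). All 3 overlapped between the conditions: VEH-T3 mice reached 75.7 FPKM for Hist3h2a, 76.5 FPKM for Hist3h2ba and 1.67 FPKM for Hist2h4. The 95% intervals were 0.10 to 0.48 for Hist3h2a and 0.08 to 1.18 for Hist2h4. The calls against VEH-HC are thus not shown to depend on the plasmid by an adjusted p.

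With the phospho-null plasmid, 0 of the 26 rows were called in Y397F-T10 against VEH-HC by limma, beside 0.470% of all rows higher and 0.660% lower. Before adjustment there was 1 higher under 0.05, Hist2h4, and 0 lower, beside 5.50% and 11.4% of all rows. Hist2h4 ran from 0.376 to 3.70 FPKM with a median of 1.33 in Y397F-T10 (0.55 ± 0.27, adjusted p = 0.294; exact permutation p = 0.0346), overlapping VEH-HC. Hist3h2a was 56.2 ± 8.06 FPKM in Y397F-T10 (0.15 ± 0.092 against VEH-HC, adjusted p = 0.419 by limma). Against VEH-T10, 0 rows were called by limma at an adjusted p and 0 at an unadjusted p under 0.05, where all tested rows had 0% at the former and 1.94% higher with 1.84% lower at the latter. Hist3h2a differed from VEH-T10 by -0.15 (95% interval -0.34 to 0.04), and Hist3h2ba by -0.15 (-0.41 to 0.11).

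**Figure D4:**
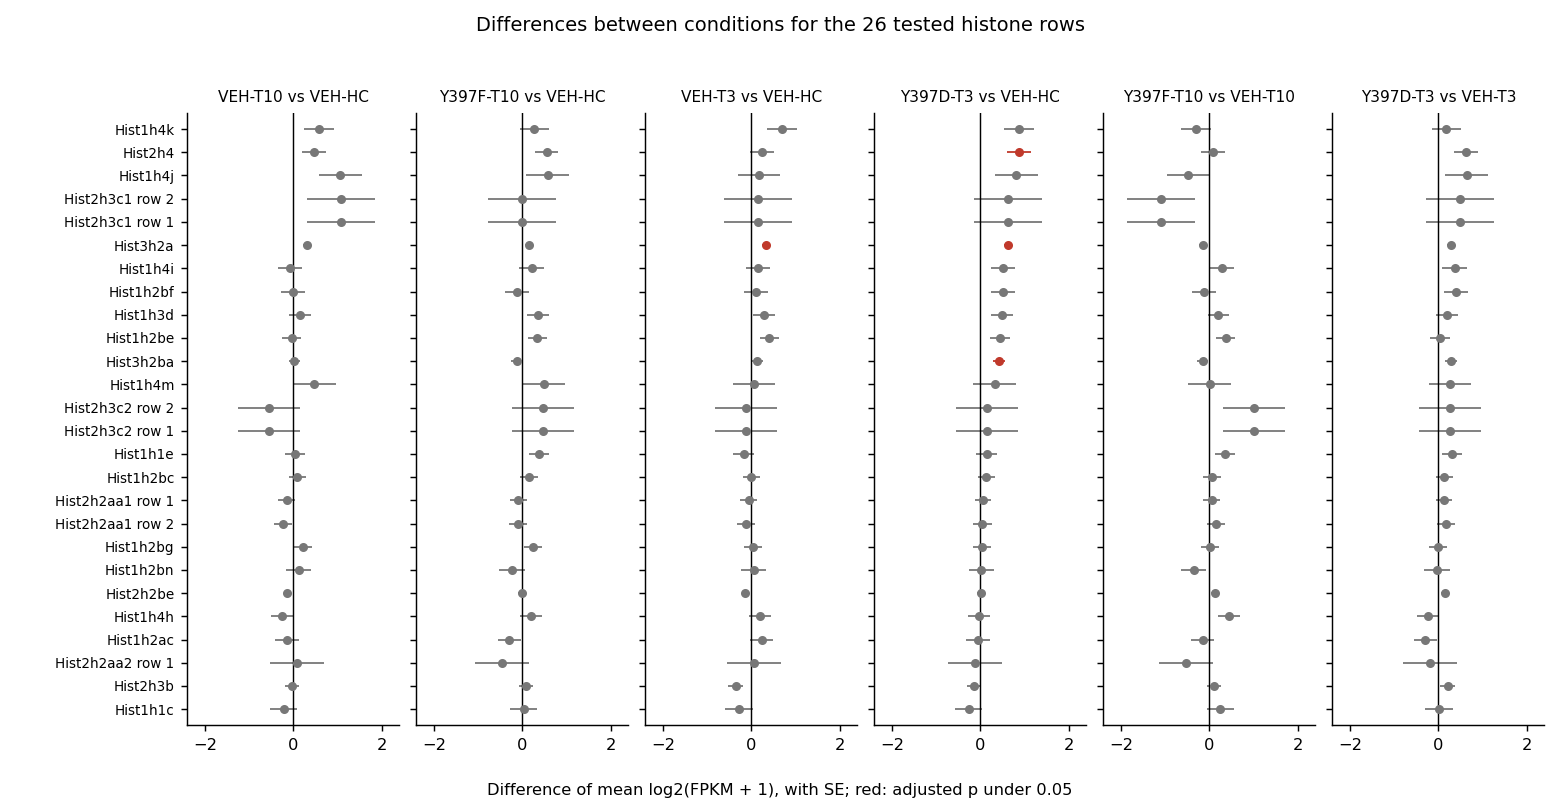
Difference of mean log2(FPKM + 1) with its SE for the 26 tested histone rows in 6 comparisons, ordered by Y397D-T3 against VEH-HC, with rows at an adjusted p under 0.05 in red. Hist3h2a is red in both T3 comparisons with VEH-HC, Hist3h2ba and Hist2h4 are red in Y397D-T3, and both comparisons between trained conditions hold no red point.

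The paper that reported these libraries lists Hist1h4j, Hist2h2aa2 and Hist2h4 as raised over VEH-HC in VEH-T10 and Y397D-T3 but not in VEH-T3. It used Cyber-T p-values under 0.05, and it counts Hist1h4j among the genes that Y397F-T10 failed to raise. Here limma called only Hist2h4 of these genes in Y397D-T3, and it did not call any of them in VEH-T10. In VEH-T10 the adjusted p was 0.301 for Hist1h4j and 0.974 for the tested row of Hist2h2aa2. Hist2h4 differed by 0.47 ± 0.27 (SE), with an adjusted p of 0.423 from limma and p = 0.108 by the exact permutation test. Hist2h2aa2 summed over its rows was under 0.01 FPKM in 14 of the 30 mice. It was at 0.000103 FPKM in the lowest library and 11.7 FPKM in the highest. Its median was 1.29 FPKM in VEH-HC, 1.06 and 0.000140 FPKM after 10 min with vehicle and Y397F, and 1.52 and 1.47 FPKM after 3 min with vehicle and Y397D, and the ranges overlapped throughout. Against VEH-HC, the exact permutation test of its mean FPKM gave p = 0.461 in VEH-T10 and 0.762 in Y397D-T3. The study picked Hist1h4j, Hist2h2aa2 and Hist2h4 from these same libraries, so the permutation tests on them are not independent evidence.

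Levels of the abundant members moved together from mouse to mouse. Hist1h2bc went with Hist2h2aa1 across the 30 mice (r = 0.851, rho = 0.731, adjusted permutation p 3.33e-05 and 0.000114, r = 0.756 without the 2 libraries farthest from the median) and with Hist1h1c (r = 0.831, rho = 0.822, adjusted p 3.33e-05 for both, r = 0.814 without 2 libraries). Deviations from the condition means gave r = 0.896 and r = 0.871. Hist3h2ba also went with Hist2h2aa1 (r = 0.528, rho = 0.422, adjusted p 0.00587 and 0.0391, r = 0.341 without 2 libraries, r = 0.593 within conditions) and with Hist1h2bc (r = 0.460, rho = 0.396, adjusted p 0.0218 and 0.0533, r = 0.299 without 2 libraries, r = 0.611 within conditions). Hist3h2a went with its neighbor Hist3h2ba (r = 0.747, rho = 0.751, adjusted p 3.33e-05 for both, r = 0.700 without 2 libraries, r = 0.634 within conditions). For Hist3h2a the pooled values were lower with Hist1h2bc (r = 0.258, rho = 0.232, adjusted p 0.258 and 0.287, r = 0.217 without 2 libraries, r = 0.330 within conditions) and with Hist1h1c (r = 0.051, rho = -0.0478, adjusted p 0.799 for both, r = -0.0413 without 2 libraries, r = 0.377 within conditions). These values come from the 10 pairs of the 5 highest symbols on log2(FPKM + 1), chosen after their levels were seen, with p adjusted over 20 tests, r and rho for each pair.

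The 5 highest symbols were also set against the median FPKM of each library, a measure of how its fragments were spread over genes, which ran from 9.08 to 10.3. Hist1h2bc (r = 0.730, rho = 0.643, adjusted permutation p 0.000100 and 0.000425, r = 0.688 without 2 libraries), Hist2h2aa1 (r = 0.628, rho = 0.471, adjusted p 0.000580 and 0.0158, r = 0.580 without 2 libraries) and Hist1h1c (r = 0.755, rho = 0.697, adjusted p 0.000100 and 0.000233, r = 0.708 without 2 libraries) were higher in libraries with a higher median. Hist3h2a (r = -0.137, rho = -0.194, adjusted p 0.471 and 0.378, r = -0.0971 without 2 libraries) and Hist3h2ba (r = 0.232, rho = 0.146, adjusted p 0.313 and 0.471, r = 0.145 without 2 libraries) did not pass the test. Within conditions r was 0.829 for Hist1h2bc, 0.666 for Hist2h2aa1, 0.773 for Hist1h1c, 0.111 for Hist3h2a and 0.450 for Hist3h2ba, over 5 relations with p adjusted over 10 tests, r and rho for each, and n = 30 libraries. The part of the library median in these levels was not tested.

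**Figure D5:**
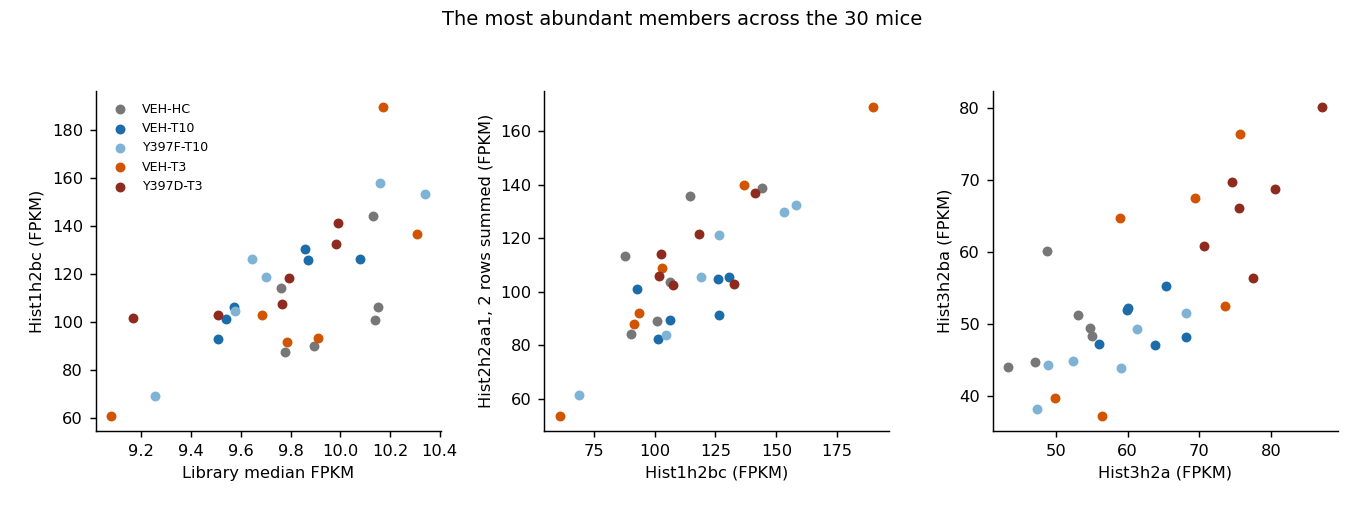
Each point is 1 of 30 mice, colored by condition: Hist1h2bc against the library median FPKM, Hist2h2aa1 against Hist1h2bc, and Hist3h2ba against Hist3h2a, all in FPKM. Hist1h2bc rises with the library median (r = 0.730) and with Hist2h2aa1 (r = 0.851), and Hist3h2a with Hist3h2ba (r = 0.747).

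Genes that act on histone messages and proteins were read beside the clustered genes. Slbp, which encodes the stem-loop binding protein, ran from 10.0 to 12.3 FPKM in VEH-HC, from 7.94 to 10.7 FPKM in VEH-T3 and from 8.19 to 10.7 FPKM in Y397D-T3, with medians of 10.97, 8.995 and 9.07 FPKM. It was lower in VEH-T3 (-0.27 ± 0.062, adjusted p = 0.0155) and in Y397D-T3 (-0.26 ± 0.062, adjusted p = 0.0125), below the VEH-HC median in 6 of 6 mice of both, although the ranges overlapped. Of the 13 tested rows for histone transcription and 3-prime end formation, 1 was lower in VEH-T3, and 1 was lower and 1 higher in Y397D-T3, the latter Srrt, an RNA-processing cofactor of the cap-binding complex (0.17 ± 0.053, adjusted p = 0.0420). Of the 11 replication-independent histone rows, 1 was lower in VEH-T3 (H2afx, -0.24 ± 0.070, adjusted p = 0.0417) and 1 lower in Y397D-T3 (H2afy2, a macroH2A, -0.25 ± 0.072, adjusted p = 0.0360). Of 18 histone chaperone rows, 1 was higher in VEH-T3 (Ubn2, of the HIRA complex, 0.25 ± 0.071, adjusted p = 0.0417) and 0 were called in Y397D-T3. These lists had 0 calls in VEH-T10 and in Y397F-T10 against VEH-HC. Of 15 tested S-phase and proliferation rows, such as Mki67 and Pcna, limma called 0 in any of the 7 comparisons. Differences were above 0 for 1 of 15 in Y397D-T3 against VEH-HC (median -0.16, beside -0.03 over all tested rows). This was so for 1 of 15 in Y397D-T3 against VEH-T3 (median -0.10) and 0 of 15 in Y397F-T10 against VEH-T10 (median -0.08). In the other comparisons 4 to 11 of 15 were above 0. At an unadjusted p under 0.05 there was 1 lower in Y397F-T10 and 1 lower in VEH-T3 against VEH-HC and 0 in the others. The shares of all tested rows lower at that threshold were 11.4% in Y397F-T10 and 13.8% in VEH-T3.

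Markers of the cell types in the dissection were read beside these results. The summed level of 6 choroid plexus markers ran from 920 to 5615 FPKM with a median of 3156 in VEH-HC and from 14.1 to 2846 FPKM with a median of 124 in Y397D-T3. In that comparison 0 of 6 were called after adjustment. Before adjustment 6 of 6 were lower under 0.05 by limma, beside 14.6% of all tested rows. The sum of 6 CA1 pyramidal neuron markers was 231, 243 and 259 FPKM in VEH-HC (lowest, median and highest). It was 250, 273 and 283 FPKM in VEH-T10 and 230, 254 and 309 FPKM in Y397F-T10. After 3 min it was 247, 273 and 307 FPKM in VEH-T3 and 242, 285 and 332 FPKM in Y397D-T3. Called higher were 1 of 6 in VEH-T3 (Spink8, 0.49 ± 0.14) and 2 of 6 in Y397D-T3 (Neurod6, 0.33 ± 0.091, and Pou3f1, 0.33 ± 0.084), and 0 of 6 in VEH-T10 and Y397F-T10. The CA1 differences from VEH-HC were above 0 for 4 of 6 markers in both T3 conditions. Of 6 thalamus markers, Slc17a6 was called lower in VEH-T10, Y397F-T10 and Y397D-T3 and Tcf7l2 in Y397D-T3. Among 6 markers of dentate gyrus and newborn neurons, only Calb2 was called, lower in both T3 conditions. Differences in that list were above 0 for 3 of 6 markers in VEH-T3 (median 0.02) and 4 of 6 in Y397D-T3 (median 0.07). Oligodendrocyte and microglia lists had 0 of 6 called against VEH-HC in every condition, endothelium had 1 of 6 higher in VEH-T3 and 1 lower in Y397D-T3, and 1 of 8 erythroid rows, Hbb-bs, was higher in both. With the mean of the choroid plexus markers as a covariate, the difference in Y397D-T3 was 0.59 for Hist3h2a (adjusted p = 0.00541), 0.44 for Hist3h2ba (0.0767) and 0.68 for Hist2h4 (0.185). With the CA1 markers as the covariate it was 0.48 for Hist3h2a (0.00785), 0.25 for Hist3h2ba (0.216) and 0.97 for Hist2h4 (0.0699), and the VEH-T3 difference of Hist3h2a was 0.23 (0.101). Both covariates were added after the data were seen.

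Ss18l1, read as a check on the plasmids, averaged 12.3 ± 0.745 FPKM in VEH-HC (SD, n = 6), 12.01 ± 1.18 and 12.6 ± 0.920 FPKM after 10 min with vehicle and Y397F, and 12.9 ± 1.08 and 13.5 ± 0.471 FPKM after 3 min with vehicle and Y397D, and the conditions overlapped. It was called in 0 of the 7 comparisons by limma (unadjusted p = 0.0342 in Y397D-T3 against VEH-HC, adjusted p = 0.163), and the table does not separate fragments of the mouse's own gene from those of the plasmid. The libraries differed little in relative depth, from 0.811 to 1.24 of the median library, and their number of fragments is not known.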

How the data were processed

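One FPKM table of 24883 rows and 30 columns was used, and 0 columns were left out. Per the labels and methods, libraries were sequenced as paired 150-base reads on NovaSeq and HiSeq instruments, without a record here of which library ran on which. The submitters' processing notes name TopHat2 2.1.1, Cufflinks 2.2.1 and mm10, and the FPKM values are those the authors deposited, divided by transcript length and mapped fragments. Cufflinks estimates how fragments that match several copies divide among them, so rows of near-identical histone genes are uncertain, and very small values are estimates and not fragments.

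The 13184 rows that averaged 1 FPKM or more were fitted on the log2(FPKM + 1) scale by limma 3.58.1 (R 4.3.3), with all 30 libraries, 5 condition means, 7 contrasts, a trended empirical Bayes variance and Benjamini-Hochberg adjustment over all rows at 0.05. SE and 95% intervals come from this model, unless a fit is named. Single genes were compared with 2-sided exact permutation tests of mean FPKM, and relations with 100000 permutations in Python 3.11.15 with scipy 1.17.1. The smallest p that these permutations can give is 1e-05. p-values of relations were adjusted within their family. Absolute depth is unknown. Relative depth was read from the spacing of values in 2642 low rows, which reflects single fragments. The limma and depth steps were tested on simulated data. Identical libraries were not found.

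Genes named are those the study names from this class, histone rows with an adjusted p under 0.05, the 5 highest symbols, the highest symbol of each class, Ss18l1, and called members of the gene lists. Members and lists were chosen with earlier results of these data known. Rows matched GENCODE by symbol for 95.5% of the table. Alternatives were a pseudocount of 0.1, no filter (18287 rows above 0 in at least 6 libraries), median-centred libraries, the 12 libraries compared, the replicate number as a block, rows of a symbol summed, a Cyber-T-style test, unadjusted p-values, a length and GC trend removed, single mice left out and 2 marker covariates. Replicate numbers belong to different mice. ChIP, behavior and electrophysiology were not analysed here.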

Additional observations from a re-analysis of the deposited data

Results flagged for a closer look

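In 1 of the 50 groups of 6 mice examined for the 10 named symbols, a mouse stood apart from the other 5. Hist2h2aa2, summed over its rows, was 8.15 FPKM in replicate 2 of Y397F-T10, and the next highest mouse of that condition was at 0.000173 FPKM, so the gap made up 1.00 of the range, beyond Dixon's 95% critical value. Chance flags about 1 in 20 such groups. Its near-identical copy Hist2h2aa1 ran from 61.3 to 133 FPKM in the same 6 mice.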

How the results depend on the processing

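With the 12 libraries of each comparison alone, the count of histone rows called was 1 in VEH-T10 (Hist3h2a), 0 in VEH-T3 and 5 in Y397D-T3 against VEH-HC, where Hist1h2bf and Hist1h4k were added, beside 2.43%, 0% and 14.0% of all rows. The Cyber-T-style test called 1 in VEH-T10, Hist3h2a, beside 2.06% of all rows. Its p-values were adjusted over the pairs of conditions by Tukey's method, but not over rows. Unadjusted limma p-values gave, against VEH-HC, 5 in Y397D-T3, 3 in VEH-T3, 2 in VEH-T10 and 1 in Y397F-T10, beside 24.9%, 21.6%, 14.9% and 16.9%. They gave 3 in Y397D-T3 against VEH-T3, beside 7.87%. The choroid plexus covariate left 1 in Y397D-T3, beside 3.54%, and the CA1 covariate left 0 in VEH-T3 and 1 in Y397D-T3, beside 2.84% and 2.96%. Leaving out 1 mouse gave 0 to 1 rows in VEH-T3 and 1 to 3 in Y397D-T3. A pseudocount of 0.1 and the model without a filter each called 2 rows in Y397D-T3, beside 7.11% and 4.49%. With the pseudocount of 0.1 the adjusted p was 0.0546 for Hist2h4, and without the filter it was 0.0600 for Hist2h4 and 0.0525 for Hist3h2ba. The cause of these changes was not tested. For Hist2h2aa2, which was not called, the difference in Y397D-T3 was 0.21 with its rows summed and -0.13 otherwise, and leaving out 1 mouse moved it from -0.31 to 0.14 in Y397D-T3 and from -0.45 to 0.35 in VEH-T10. Deviations of same-numbered mice had correlations from -0.50 to 0.52, with medians from -0.19 to 0.24 by comparison. Mice of unlike number were not set beside them, so whether the numbers pair mice was not tested. With the replicate number as a block limma called 3 histone rows in Y397D-T3 and 1 in VEH-T3. Median centring moved the median of all rows by under 0.1 in each comparison. Members under 1 FPKM, 49 of the 75 rows, were too low for the model with the filter. Without read totals no counting error can be given.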
